A study of Mus musculus with 16 samples.

Results

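The 12 arrays described here compare mouse embryonic stem (ES) cells that carried a TALE protein made for the Ptn locus, but without the VP64 activator, with cells that carried EGFP alone. The pooled group is the 8 samples titled Ptn DEL (4) and Ptn Delta (4), the control group is the 4 samples titled EGFP, and the series holds 16 samples in all. The remaining 4 carry the same TALE with VP64 and serve below only to place single genes.

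All groups were E14 cells grown in serum with LIF, transfected with plasmid by Lipofectamine, sorted for eGFP by FACS, re-seeded and harvested 48 h after transfection, so lipofection, sorting and re-plating are shared by the controls. The expression is transient and each array averages a sorted population. The 4 arrays of a group stand for 2 biological and 2 technical replicates, the labels not saying which arrays belong together, nor which plasmid backbone or promoter was used or what the Delta construct carries in place of DEL. Every construct also occupied its own column of both slides, so position on the slide and construct cannot be told apart.

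A TALE is a bacterial DNA-binding protein whose repeats can be arranged to recognise a chosen DNA sequence. VP64 is a strong transcriptional activation domain, whereas DEL is an acidic peptide known for loosening chromatin without itself activating transcription. Ptn encodes pleiotrophin, a secreted heparin-binding growth factor that signals through the phosphatase Ptprz1, the kinase Alk and syndecans, and it is prominent in the developing nervous system. Pooling DEL and Delta therefore sets a TALE made for Ptn, which both carry, against EGFP alone. The labels do not say whether their plasmids were otherwise alike.

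Levels are given as log2 of the processed Cy3 signal over the 75th percentile of the same array, after a correction for smooth shading across the slide, so a level of 0 means a probe as bright as that percentile. The 75th percentile signal was 209 to 752 on the EGFP arrays and 574 to 935 on the pooled arrays. The lowest level of a probe well above background was -3.06 to -2.25 on the EGFP arrays and -4.01 to -2.63 on the pooled arrays. Counts of arrays above background can therefore favour the pooled group for dim probes. EGFP replicate 2 stood apart, with the lowest percentile signal, the fewest spots well above background (27.1%, against 32.5% to 43.8% on the other 11) and the lowest median correlation with the other arrays (0.858, against 0.915 to 0.963). The cells carried ES cell markers, 7 of 8 of them detected on 6 or more of the 12 arrays. Among markers of other cells, 3 of 8 for fibroblasts, 4 of 7 for leukocytes, 2 of 6 for trophoblast and 0 of 6 for primitive endoderm were above background on no array.

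Across the array, no gene passed the test between the pooled TALE samples and EGFP. The primary test was limma on 2 samples a group, repeated for the 3 ways the 4 arrays of a group can be joined in pairs, with the largest p kept for each probe and Benjamini-Hochberg adjustment over all probes. Of 14268 probes tested (8394 genes), 0 passed an adjusted p of 0.05 (0.0%). At an unadjusted p under 0.05 limma gave 619 probes (4.34%), 390 of them higher (2.73%) and 229 lower (1.6%) with the TALEs. When the 12 arrays were entered singly, which counts repeat hybridisations as samples and so gives p-values that are too small, limma called 35 probes (0.245%), 30 higher (0.21%) and 5 lower (0.035%). The genes below are therefore described by their levels and by whether the arrays of the 2 groups overlapped, and none of them passed the primary test.

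Every usable TALE array lay above every usable EGFP array for 252 genes (3.0%), and below every EGFP array for 84 genes (1.0%). A gene could enter through signal above background on the 8 TALE arrays alone but hardly on the 4 EGFP arrays alone, which favours higher genes among the dim ones. Over the 4748 genes above background on every array with a value, the counts were 128 above (2.70%) and 58 below (1.22%). Over all genes the median log2 difference was 0.06, with 4793 above 0 (57.1%) and 3601 below. This baseline moved with the scaling: the median over all probes was 0.03 here, 0.19 without the shading correction, 0.14 under quantile normalization, 0.15 in the authors' own values, -0.21 after normexp background correction and -0.53 with no filter on dim probes. The split of the 619 probes, 63.0% of them higher, moved with it, to 98.2% higher of 887, 91.8% of 827, 89.8% of 1230, 13.7% of 1269 and 5.90% of 3896 respectively. On probes above background on all arrays the median was -0.0011, with 47.8% of 339 higher.

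Ptn itself is the gene the TALE was made for, and its promoter is shown because a TALE made for this locus is common to the pooled group. Binding was not measured, and the TALE's target sequence was not available to place in the window. The window runs from 250 bases before to 50 after the RefSeq start on the minus strand of GRCm38.p6, chr6:36810130-36810429. Capitals in this and the later promoters mark the GC box core GGGCGG, the TATA box letters TATAAA or the AP-1 motif TGANTCA on either strand, and the Ptn window holds none of these letters.
Ptn: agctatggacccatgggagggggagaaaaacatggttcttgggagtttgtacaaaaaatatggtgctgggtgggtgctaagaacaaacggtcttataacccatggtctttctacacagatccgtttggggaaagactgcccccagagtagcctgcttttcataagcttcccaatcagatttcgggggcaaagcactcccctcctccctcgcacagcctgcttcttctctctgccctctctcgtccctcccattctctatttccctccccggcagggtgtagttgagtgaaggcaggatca

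The Ptn probe with enough arrays read -1.89, -0.15, -1.58 and -1.13 on EGFP replicates 1 to 4. Among the TALE samples it read 0.99, -1.76 and 0.15 on Ptn DEL replicates 2 to 4, replicate 1 being left out, and -0.47, -0.41, -0.79 and 0.15 on Ptn Delta replicates 1 to 4. The groups overlapped, with Ptn DEL replicate 3 as low as the darkest EGFP arrays. The log2 difference was 0.89 ± 0.64 (standard error; limma adjusted p = 1), and it was 0.98 for Ptn DEL and 0.81 for Ptn Delta, which share the EGFP arrays. A difference of this size was within the spread between arrays, and after normexp background correction it was -0.06. A further Ptn probe had 2 usable EGFP arrays, too few for the primary test. Its levels were -0.31 and -2.17 with EGFP and -2.53 to 0.56 over 6 TALE arrays, and with 2 EGFP arrays allowed its log2 difference was 0.28 ± 1.17 (limma unadjusted p = 0.823). With VP64 that probe read 2.98, 2.60 and 3.31 on replicates 2 to 4, above every array without VP64. The log2 difference of VP64 from the pooled TALEs was 3.92 ± 0.84. Limma's adjusted p was 0.313 in the primary test, which it did not pass, and 0.0253 with arrays entered singly.

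The other genes tested from the pleiotrophin list were the growth factor Mdk, and Ptprz1, Alk, Sdc1, Sdc2, Sdc4, Itgav, Ncl and Lrp1. With Ptn itself 10 were tested, and 8 lay above 0 with a median log2 difference of 0.58, against 0.06 over all genes. That median was -0.29 after normexp, and -0.41 on probes above background on all arrays, where 2 genes remained. The receptor kinase Alk was not well above background on any EGFP array (-3.75, -3.81 and -4.30) and ranged from -3.44 to -2.23 over 7 TALE arrays, values too near background to bound a fold, and its only sign change was -0.41 after normexp. Ptprz1, likewise below background in EGFP, was at least 1.34-fold higher, also with the opposite sign (-0.29) after normexp, and its arrays overlapped. Syndecan Sdc4 differed by 0.97 ± 0.41 and nucleolin, Ncl, by -0.66 ± 0.35, with overlapping arrays in both.

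9 of the 10 genes with the smallest p among those higher on both slides and with both constructs, and whose arrays did not overlap, had log2 differences of 1.09 (Hs6st2) to 1.99 (Cdh10). The samples are bulk populations, so a larger share of cells expressing a gene and more RNA per cell cannot be told apart. A small p, separation of the arrays and the same sign with both constructs were conditions of this choice. The plot of these genes by array therefore describes their levels and adds no evidence. The same holds for their adjusted p-values against EGFP with arrays entered singly.

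**Figure D1:**
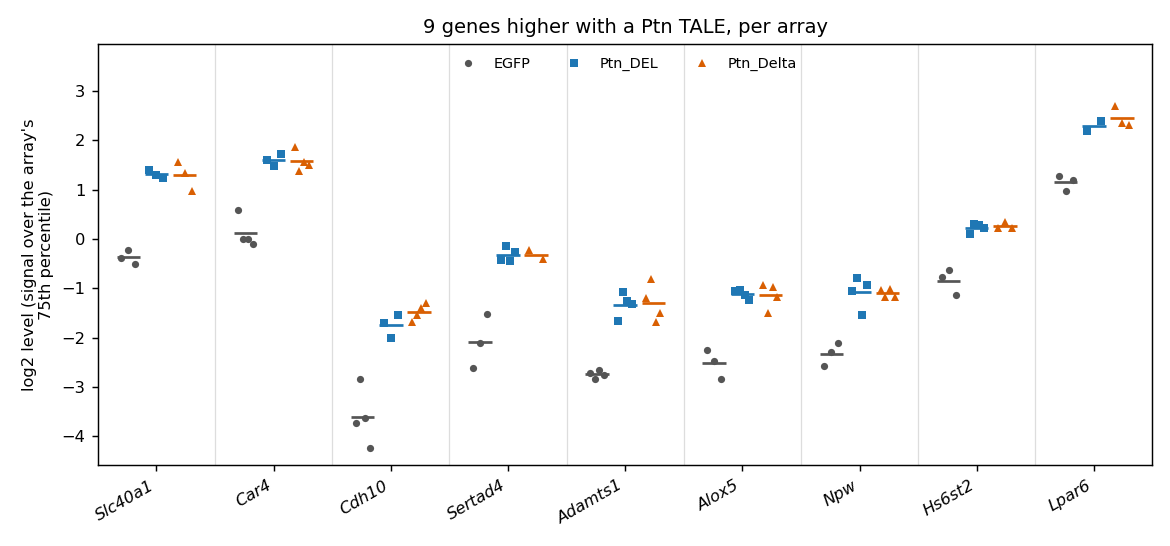
Log2 level (y axis) of 9 of the 10 genes with the smallest p among those higher in the pooled Ptn TALE samples (x axis), each point an array and each bar a group mean, for EGFP, Ptn DEL and Ptn Delta. The genes were chosen for arrays that do not overlap, and for Slc40a1 the EGFP levels of -0.50 to -0.23 lie below TALE levels of 0.98 to 1.55.

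Slc40a1 encodes ferroportin, the cellular iron exporter. Its levels were -0.38, -0.23 and -0.50 on EGFP replicates 2 to 4, and ran from 0.98 through a median of 1.32 to 1.55 over 6 TALE arrays. The log2 difference of 1.67 ± 0.16 (3.18-fold) was 1.68 for Ptn DEL and 1.66 for Ptn Delta. It was 1.81 on slide 1, where EGFP replicate 2 was the only control, and 1.53 on slide 2. Limma's adjusted p was 0.986 in the primary test and 0.025 with arrays entered singly.

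Car4 encodes a carbonic anhydrase anchored to the outer cell surface. Its EGFP levels were 0.59, 0.00, -0.01 and -0.10 as rounded from replicates 1 to 4, and 7 TALE arrays ran from 1.37 through 1.57 to 1.86. EGFP replicate 1 was thus the nearest to the TALE arrays and still below the lowest of them. The log2 difference was 1.47 ± 0.21 (2.77-fold), and adjusted p with arrays entered singly in limma was 0.0205.

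Cdh10 encodes a type II cadherin found mainly in the nervous system. It read -3.72, -2.84, -3.63 and -4.24 with EGFP, not well above background on any of these arrays, and -2.0 to -1.30 (median -1.55) over 7 TALE arrays, 6 of them well above background. Its log2 difference from EGFP went as low as 0.15 over the alternatives run. In the main processing the level was at least 2.10-fold higher with the TALEs. With VP64 it was higher again, at -0.21, 0.27, -0.41 and 0.20, and the log2 difference of VP64 from the pooled TALEs was 1.58 ± 0.23. Limma's adjusted p for it was 0.223 in the primary test and 0.00558 with arrays entered singly. Among the 8 of these 9 genes tested against VP64, Cdh10 alone passed with arrays entered singly, and none passed the primary test.

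The promoters of Car4 and Cdh10 are printed as the leading higher genes with a RefSeq window, on the plus strand of GRCm38.p6 at chr11:84957504-84957803 and chr15:18820079-18820378. The Car4 window has a TATAAA after the annotated start and is 57.3% G or C, and the Cdh10 window has none of the 3 motifs and is 37.7% G or C.
Car4: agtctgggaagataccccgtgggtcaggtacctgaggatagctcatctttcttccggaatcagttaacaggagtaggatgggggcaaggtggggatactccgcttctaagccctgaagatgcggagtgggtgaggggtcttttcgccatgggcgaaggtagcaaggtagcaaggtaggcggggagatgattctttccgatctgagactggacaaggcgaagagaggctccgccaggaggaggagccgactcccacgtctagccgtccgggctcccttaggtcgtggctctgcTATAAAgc
Cdh10: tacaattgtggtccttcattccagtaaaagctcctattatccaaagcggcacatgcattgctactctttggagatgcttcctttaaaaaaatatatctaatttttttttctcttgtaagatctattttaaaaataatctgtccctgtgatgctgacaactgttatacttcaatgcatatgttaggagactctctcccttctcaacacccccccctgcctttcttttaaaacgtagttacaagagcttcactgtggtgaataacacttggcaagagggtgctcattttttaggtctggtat

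A window was found for 7 of the 9 higher genes and 8 of the 10 lower genes described here. GGGCGG occurred in 3 of the 7 and 2 of the 8, and in 35.9% of all 27025 promoters of that length. TATAAA occurred in 3 of the 7 and 3 of the 8, against 14.2% of all promoters, and TGANTCA in 0 of the 7 and 1 of the 8, against 7.93%. These matches describe the letters in the windows and were not tested.

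Adamts1, a secreted metalloprotease that cleaves matrix proteoglycans, read -2.72, -2.84, -2.66 and -2.77 with EGFP and -1.68 to -0.81 (median -1.29) on all 8 TALE arrays. It was above background on all 8 and on no EGFP array, at least 2.48-fold higher, although normexp correction gave -0.14. Alox5, the 5-lipoxygenase that starts leukotriene synthesis, read -2.25, -2.48 and -2.84 with EGFP, none well above background, and -1.50 to -0.92 with the TALEs. In the main processing it was at least 2.62-fold higher, but over the alternatives run its log2 difference went as low as 0.015. VP64 arrays read -1.63, -2.24 and -1.68 for Alox5, below all 8 TALE arrays, though the log2 difference of -0.72 ± 0.23 did not pass (adjusted p = 0.104 with arrays entered singly in limma).

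Npw, the precursor of neuropeptide W, read -2.58 to -2.11 on 3 EGFP arrays and -1.54 to -0.79 on 8 TALE arrays, a log2 difference of 1.24 ± 0.17 that became -0.24 after normexp. Sertad4 read -2.62, -2.11 and -1.53 with EGFP and -0.44 to -0.14 with the TALEs, a difference of 1.77 ± 0.25. Hs6st2, which adds 6-O-sulfate to heparan sulfate, read -1.13 to -0.62 with EGFP and 0.09 to 0.34 with the TALEs. The SD of Hs6st2 was 0.08 over 7 TALE arrays and 0.26 over 3 EGFP arrays, and arrays that do not overlap were a condition of its choice. Over the alternatives run its log2 difference went as low as 0.27.

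Lpar6, a lysophosphatidic acid receptor, read 1.27, 0.97 and 1.20 with EGFP and 2.19 to 2.69 on 5 TALE arrays. Its adjusted p was 0.114 with arrays entered singly in limma.

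The 10 genes taken by the same rule in the lower direction were a mixed set that included 2 ribosomal protein genes at the top of the signal range. They too were chosen by a small p and for arrays that did not overlap. The plot of the lower genes by array shows narrow margins for Enpp3, Rps2 and Cpne9.

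**Figure D2:**
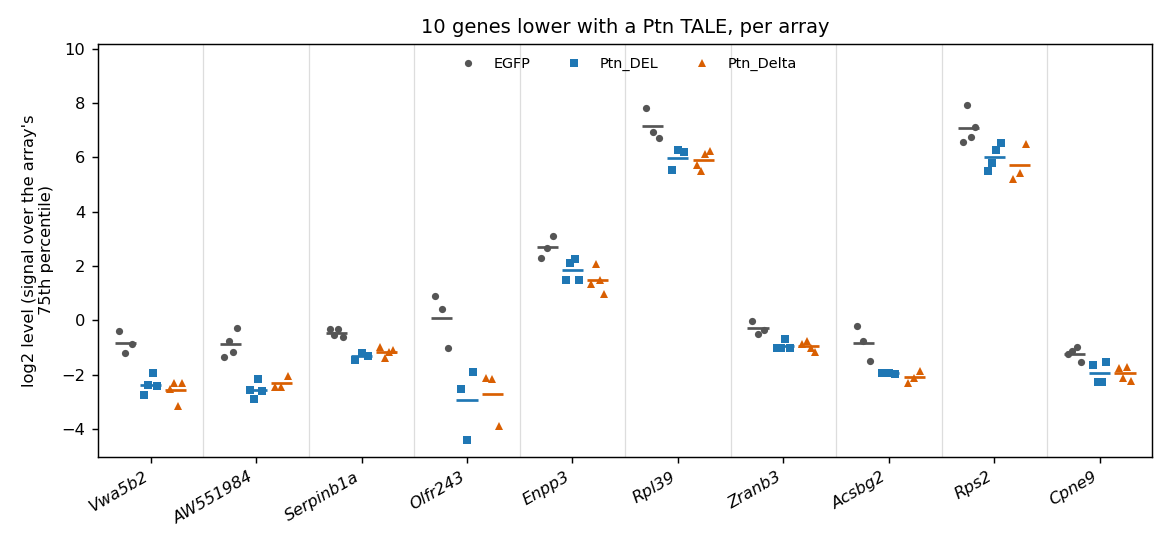
Log2 level (y axis) of the 10 genes with the smallest p among those lower in the pooled Ptn TALE samples (x axis), each point an array and each bar a group mean. The levels of Rpl39 and Rps2 lie between 5.21 and 7.93, where spots reach the scanner's ceiling, and EGFP replicate 2 is the highest point for both.

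Vwa5b2 read -0.39, -1.18 and -0.88 on EGFP replicates 2 to 4 and -3.17 to -1.93 (median -2.39) on 8 TALE arrays. Its log2 difference of -1.65 ± 0.24 was -2.09 on slide 1, where EGFP replicate 2 was the only control, and -1.42 on slide 2. The adjusted p of Vwa5b2 was 0.0465 when arrays were entered singly in limma. AW551984 read -1.36, -0.75, -1.15 and -0.27 with EGFP and -2.88 to -2.04 over 7 TALE arrays (difference -1.55 ± 0.30), but a separate AW551984 probe gave -0.22 ± 0.19. VP64 arrays of both genes lay below all EGFP arrays, from -2.97 to -1.49 for Vwa5b2 and from -2.75 to -2.12 for AW551984.

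Serpinb1a, an inhibitor of neutrophil proteases, read -0.33, -0.55, -0.32 and -0.61 with EGFP and -1.46 to -0.97 with the TALEs, a difference of -0.78 ± 0.21. With VP64 it read 0.26, 0.96 and 0.06, above both, and the difference of VP64 from the pooled TALEs was 1.66 ± 0.26. Limma's adjusted p for it was 0.223 in the primary test, not passing, and 0.0114 with arrays entered singly. The 3 conditions were therefore ordered with the TALEs without VP64 lowest and VP64 highest, with no overlap of arrays.

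Olfr243, an olfactory receptor gene, had the largest difference of the 10, -2.93 ± 0.74, and the widest spread, from -1.01 to 0.89 with EGFP and -4.39 to -1.91 with the TALEs. Enpp3, a cell-surface nucleotide pyrophosphatase, read 2.29, 2.66 and 3.12 with EGFP and 0.97 to 2.25 with the TALEs. Zranb3, which restarts stalled replication forks, differed by -0.65 ± 0.19 and the copine gene Cpne9 by -0.72 ± 0.23. For Acsbg2, an acyl-CoA synthetase, the difference was -1.19 ± 0.30. In the authors' own values Acsbg2 gave 0.15 and Cpne9 0.01, the opposite sign.

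Rps2 and Rpl39 encode proteins of the small and the large ribosomal subunit. Rps2 read 6.57, 7.93, 6.75 and 7.12 with EGFP and 5.21 to 6.52 over 7 TALE arrays, and its spots were saturated on 3 of the 4 EGFP arrays and on all 7 TALE arrays. Rpl39 read 7.81, 6.95 and 6.72 with EGFP and 5.51 to 6.27 with the TALEs, and gave 0.03 in the authors' values. The Rps2 promoter is shown because Rps2 had the smallest p on the ribosomal list described next, which does not hold Rpl39. The window lies on the plus strand of GRCm38.p6 at chr17:24719813-24720112, with GGGCGG and 2 TATAAA matches.
Rps2: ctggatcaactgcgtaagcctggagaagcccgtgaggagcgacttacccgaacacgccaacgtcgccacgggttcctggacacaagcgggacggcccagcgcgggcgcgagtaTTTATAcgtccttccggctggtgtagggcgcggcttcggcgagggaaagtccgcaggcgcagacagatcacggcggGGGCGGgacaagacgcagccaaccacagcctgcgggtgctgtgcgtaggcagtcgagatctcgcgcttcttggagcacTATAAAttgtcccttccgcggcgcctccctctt

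Over the list of cytosolic ribosomal protein genes, 50 of 54 tested lay below 0 and 4 above, with a median log2 difference of -0.54. Of the 54, 9 had an unadjusted p under 0.05 in limma, all lower, against 84 of 8394 genes lower (1.0%), and 0 passed the adjusted threshold in either limma fit. The median kept its sign under each alternative run and was -0.78 on slide 1 and -0.41 on slide 2. Without EGFP replicate 2 it was -0.37.

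Many of these probes were saturated, and the part of saturation in this result was not tested. On EGFP replicates 1 to 4, 75.9%, 11.1%, 75.9% and 70.4% of the ribosomal protein probes were saturated. On the TALE arrays it was between 44.4% and 79.6%. Before the shading correction, the scanner's ceiling corresponded to a log2 level of 8.29 on EGFP replicate 2 and of 6.13 to 6.85 on the other 11 arrays. Corrected levels are on a shifted scale and can exceed it, as on EGFP replicate 4, with a ribosomal median of 7.01 and a ceiling of 6.85. Only 3 of the 54 probes were saturated on no array, and their median was -0.22. All 454 probes with a mean level of 6 to 9, ribosomal protein probes among them, had a median difference of -0.55. Of their spots 51.5% with EGFP and 64.4% with the TALEs were saturated, while probes from -9 to 4 had medians of 0.03 to 0.08. With probes saturated on any array left out, and dimmer probes standing for their genes where there were any, 11 ribosomal genes could be tested and had a median of -0.11.

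**Figure D3:**
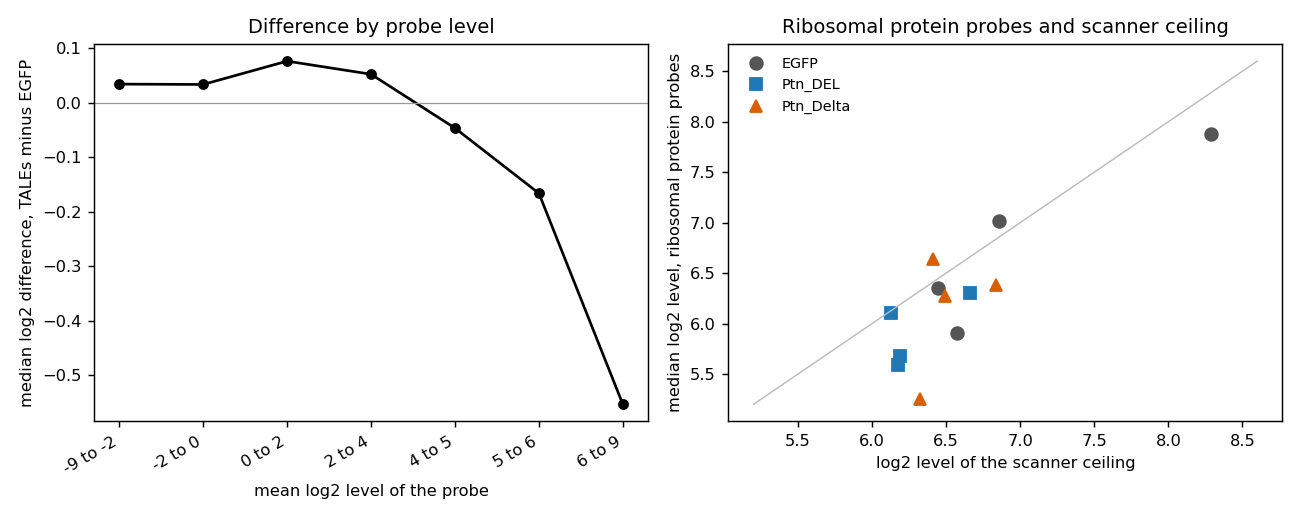
Left, median log2 difference of the pooled TALEs from EGFP (y axis) over probes binned by mean log2 level (x axis), which runs near 0 up to a level of 4 and reaches -0.55 in the brightest bin. Right, median log2 level of ribosomal protein probes (y axis) against the level of the scanner's ceiling (x axis), a point per array with the line of equality. The ceiling is given before the shading correction and the levels after it, so points can lie above the line. EGFP replicate 2 sits apart at a ceiling of 8.29.

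Pou5f1, Sox2, Dppa5a, Fbxo15 and Trim28 of the core pluripotency list were also bright, while Sall4, Dppa4 and Gdf3 were dimmer. Pou5f1, which encodes Oct4, read 8.07, 6.35 and 7.13 on EGFP replicates 2 to 4 and 5.07 to 6.53 over 5 TALE arrays, which overlapped. Its difference of -1.08 ± 0.41 was -0.37 on slide 2, 1.04 without the shading correction and 0.90 in the authors' values. On slide 1 the difference was -3.0, from a single array of each group, EGFP replicate 2 at 8.07 and Ptn Delta replicate 1 at 5.07. Sox2 differed by -0.17 ± 0.26, Dppa5a by -0.41 ± 0.25 with every usable spot saturated, and Trim28 by -0.90 ± 1.17 with a single low array, Ptn DEL replicate 4 at 1.48. The 8 genes tested had a median of -0.18, 6 below 0.

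Naive pluripotency genes, which mark the state that LIF sustains, had a median of -0.34 over 8 tested genes of 21 listed, 6 below 0. It was -0.18 without EGFP replicate 2 and turned to 0.11 without the shading correction. The brightest probes of Nanog, Zfp42, Esrrb, Klf4 and Tdgf1 had values on 2 EGFP arrays, too few for the primary test. Nr0b1, encoding the nuclear receptor Dax1, read 5.10, 5.84, 4.95 and 5.71 with EGFP and 4.37 to 5.01 (median 4.64) over 8 TALE arrays, with EGFP replicate 3 lying below 2 of the TALE arrays. Its difference was -0.74 ± 0.27, nearly the same for Ptn DEL (-0.73) and Ptn Delta (-0.74). Fgf4, the autocrine growth factor of ES cells, read 4.51 to 4.97 with EGFP and 3.96 to 4.42 with the TALEs, without overlap (-0.55 ± 0.20). Tet2, a 5-methylcytosine dioxygenase, did not overlap either (-0.44 ± 0.17), whereas Jam2 did (-0.39 ± 0.23). Arrays without overlap, lower, were thus seen for 2 of the 8, against 1.0% of all genes. Fgf4 and Tet2 had no value on EGFP replicate 2, and values on 5 and 6 TALE arrays.

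LIF-STAT3 targets lay above 0 in 7 of 7 genes, with a median of 0.13 that was -0.03 under quantile normalization and -0.26 in the authors' values. Cish, a feedback inhibitor of cytokine signalling, read -1.23, -0.56, -0.48 and -0.36 with EGFP and -0.59 to -0.04 with the TALEs, a difference of 0.44 ± 0.22. Its level with VP64, 1.88 to 2.23 on 3 arrays, was above all of these, and the difference of VP64 from the pooled TALEs was 2.30 ± 0.14. Limma's adjusted p for it was 0.0717 in the primary test, not passing, and 1.64e-04 with arrays entered singly. Stat3 differed by 0.48 ± 0.26 with overlapping arrays.

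Genes of the p53 response lay above 0 in 16 of 20 tested, with a median log2 difference of 0.39 that ran from 0.20 to 0.75 over the alternatives and was 0.32 without EGFP replicate 2. Of the 20, 5 had an unadjusted p under 0.05 in limma, all higher, against 282 of 8394 genes higher (3.36%), and 0 passed the adjusted threshold in the primary fit. Arrays did not overlap for 3 of the 20 higher, against 3.0% of all genes, and for 1 lower, Tigar (-0.37 ± 0.21), against 1.0% of all genes. Trp53 itself, which encodes p53, differed by -0.70 ± 0.33.

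Perp, a p53 target that encodes a desmosomal membrane protein, read 2.70, 3.53 and 2.90 on EGFP replicates 2 to 4. On 8 TALE arrays it read 4.15 to 4.52 with a median of 4.33, without overlap. The SD was 0.11 on the TALE arrays and 0.43 on the 3 EGFP arrays. Perp's difference of 1.28 ± 0.25 (2.42-fold) did not pass the primary test, and had an adjusted p of 0.0346 with arrays entered singly in limma. The VP64 arrays read 3.91 to 4.50, level with the other TALEs, and the difference from them was -0.02 ± 0.16.

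Plk2, a stress-responsive Polo-like kinase, read 0.60, -0.98 and 0.41 with EGFP and 0.94 to 1.78 over 5 TALE arrays. Phlda3, an inhibitor of Akt, read 3.50, 2.58 and 2.78 with EGFP and 3.61 to 4.23 over 5 TALE arrays. Cdkn1a, the cell cycle inhibitor p21, read 0.71, -0.04, 1.16 and 0.64 with EGFP and 0.99 to 1.47 over 8 TALE arrays, so that EGFP replicate 3 fell within the TALE range. Its difference was 0.65 ± 0.24. VP64 arrays of Cdkn1a, at 1.01 to 1.69, overlapped the range of the TALEs without VP64.

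**Figure D4:**
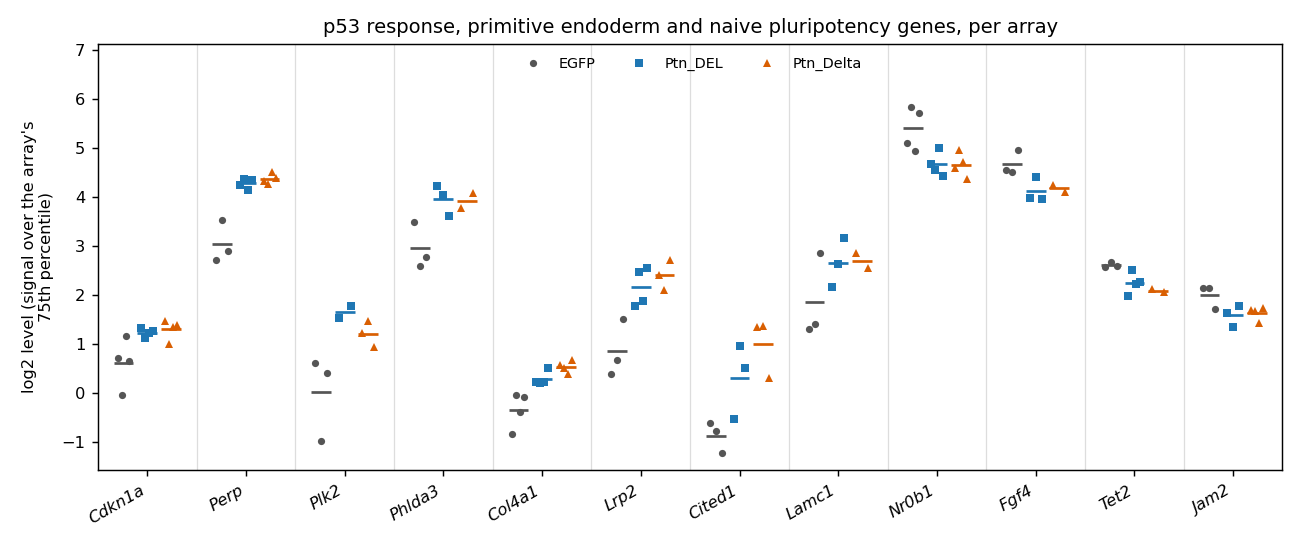
Log2 level (y axis) of 12 genes from the p53 response, primitive endoderm and naive pluripotency lists (x axis), each point an array and each bar a group mean, for EGFP, Ptn DEL and Ptn Delta. Perp, Plk2, Phlda3, Col4a1, Lrp2 and Cited1 have every TALE array above every EGFP array, and Fgf4 and Tet2 every TALE array below.

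Primitive endoderm genes lay above 0 in 12 of 14 tested, with a median of 0.28 that was -0.43 after normexp and 0.84 without EGFP replicate 2. Lrp2, Col4a1 and Cited1 were the 3 members whose arrays did not overlap, against 252 of 8394 genes higher without overlap (3.0%), and the 3 with an unadjusted p under 0.05 in limma, against 3.36% of all genes higher. Lrp2, the endocytic receptor megalin, read 0.38, 0.68 and 1.51 with EGFP and 1.78 to 2.71 over 7 TALE arrays (1.43 ± 0.26). Col4a1, a chain of basement membrane collagen, read -0.85, -0.05, -0.40 and -0.09 with EGFP and 0.21 to 0.67 with the TALEs (0.76 ± 0.24). Col4a1 was further above both with VP64, at 1.19 to 2.38, a difference of 1.39 ± 0.28 from the pooled TALEs. Limma's adjusted p for it was 0.280 in the primary test, not passing, and 0.0114 with arrays entered singly.

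Cited1, a transcriptional co-activator, read -0.61, -0.77 and -1.23 with EGFP and -0.54 to 1.37 with the TALEs (1.53 ± 0.55), and the laminin chain Lamc1 overlapped (0.85 ± 0.44, and -0.45 in the authors' values). The transcription factors that define the lineage had small or loose differences, 0.05 ± 0.22 for Gata4, 0.19 ± 0.67 for Gata6 and 0.82 ± 0.69 for Sox17. The summed linear level of 6 primitive endoderm markers was 0.807 to 2.56 on EGFP arrays and 0.999 to 6.51 on TALE arrays, overlapping, and its part in the values of Lrp2 and Col4a1 was not tested.

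Immediate early genes lay above 0 in 7 of 7, with a median of 0.53 that kept its sign under each alternative run. Klf6, a zinc finger factor, was the single gene of the 7 without overlap (0.76 ± 0.21), against 3.0% of all genes, and Fos, Jun, Egr1 and Atf3 differed by 0.31 to 0.89 with overlap. In the trophoblast list 4 of 5 lay above 0 with a median of 1.49, but that median was 0.73 without EGFP replicate 2, -0.18 with outlier spots kept and -1.49 on probes above background on all arrays, where Plet1 alone remained. Cdx2, the trophectoderm transcription factor, was above background on 0 of 4 EGFP and 5 of 7 TALE arrays.

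Interferon and innate sensing genes as a list were level, with a median of 0.05 over 11 genes, 7 above 0, and of -0.42 after normexp. Oasl2, an interferon-induced protein of the oligoadenylate synthetase family, had the largest log2 difference of the list, 1.82 ± 0.18, resting on EGFP readings below background. It read -4.10, -4.29 and -4.36 with EGFP, below background on each, and -2.64 to -2.16 over 6 TALE arrays. Of these TALE arrays 4 were above background, so Oasl2 entered the test through the TALE group alone. The TALE level was at least 1.14-fold higher, and adjusted p was 0.0205 with arrays entered singly in limma. Ifitm3 differed by 0.53 ± 0.22 with overlap. Oas1a lay in the opposite direction, at 0.47 to 0.67 with EGFP and -0.70 to 0.24 with the TALEs (-0.64 ± 0.30), and Zbp1 differed by 0.36 ± 0.28.

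Of all 28 lists, 16 had a median above 0, and the plot of the lists sets these medians beside that of all genes. Lists for cell cycle and DNA replication (-0.04, 17 genes), endoplasmic reticulum chaperones (0.01, 12 genes), BCL2-family apoptosis genes (-0.01, 17 genes) and hypoxia and glycolysis (-0.01, 12 genes) lay close to 0. Proteasome subunits had a median of -0.15 with 12 of 14 below 0, turning to 0.19 without the shading correction, 0.13 after normexp and 0.15 in the authors' values.

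**Figure D5:**
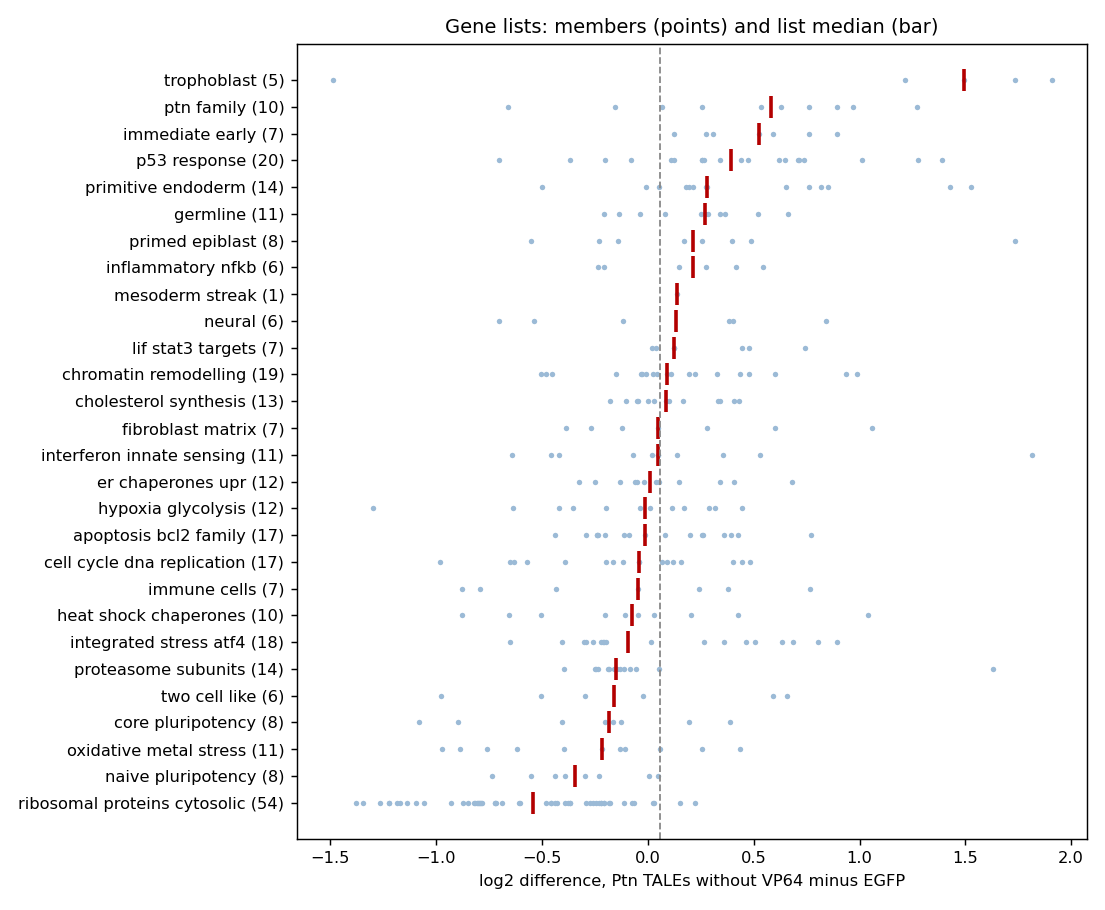
Log2 difference of the pooled TALEs without VP64 from EGFP (x axis) for each tested member (points) and the median (bar) of 28 gene lists (y axis, number of genes tested in brackets), with the median of all genes, 0.06, as a dashed line. Ribosomal protein genes lie lowest at -0.54, and the trophoblast list, with 5 genes, lies highest at 1.49.

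Ptn DEL and Ptn Delta, the parts of the pooled group, could not be told apart by the test. Between them 0 of 14268 probes passed in either limma fit (0.0%), and 14 (0.0981%) had an unadjusted p under 0.05 in the primary fit. Arrays did not overlap for 276 probes higher (1.93%) and 307 lower (2.15%) with DEL. A missed threshold does not show that the constructs acted alike.

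The genes that differed most by the rule were Capn13, a calpain protease, at -1.40, -0.18, -1.75 and -1.22 with DEL and -5.55, -5.89 and -3.52 with Delta, at least 6.04-fold higher with DEL. EGFP arrays of Capn13 spanned -4.72 to -1.61, so the controls alone covered much of the distance between the constructs. Smarcd3, a BAF chromatin remodelling subunit, differed by 1.85 ± 0.85 and Zscan5b by 0.88 ± 0.33, higher with DEL. Gm6614 (-1.60 ± 0.31), Gm11938 (-1.72 ± 0.47) and Klhdc4 (-1.15 ± 0.42) were lower with DEL, Klhdc4 with Ptn DEL replicate 4 at 1.02 against 2.68 and 2.84 in the other 2 arrays.

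Against the VP64 arrays the pooled TALEs differed at a single probe in the primary fit, 1 of 15239 (0.00656%), and at 249 (1.63%) with arrays entered singly in limma. The probe reported Il33, an alarmin cytokine. Il33 read 2.52, 2.51 and 2.67 with VP64, -3.51 to -2.21 with the pooled TALEs and -4.15, -3.22, -4.15 and -3.97 with EGFP, a difference of 5.48 ± 0.22 between VP64 and the pooled TALEs (limma adjusted p = 0.016). The TALE and EGFP arrays overlapped for Il33, with 4 of 8 and 0 of 4 above background, too near it to bound a fold.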

How the data were processed

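The arrays are 1-colour Agilent mouse arrays scanned for Cy3. Per the file headers, signals were extracted with Agilent Feature Extraction 11.5.1.1, and the authors deposited the processed intensity of each spot, background-subtracted by that software. Their series table, used as an alternative, held log2 values that the authors had normalized to identical quantiles on all 16 arrays. From the processed intensity, log2 over the array's 75th percentile was taken, and a local shift was subtracted, the median difference from the 16-array median in windows of 21 by 21 spots. Spots were left out where the local shift departed by over 1 log2 unit from its median on that array, or where the software flagged an outlier, so that a probe can lack a value on some arrays. Spots of a probe were averaged. Up to 35.6% of spots lay in such patches on an array. The number of arrays limits the precision.

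Probes were kept with values on at least 3 EGFP, 2 Ptn DEL and 2 Ptn Delta arrays and called above background by the software on 4 or more of the 12; of probes for the same gene the brightest stood for it. Of 55681 probes, 27656 had a single gene symbol by accession or symbol in RefSeq and 28025 had none. Limma 3.58.1 (R 4.3.3; Python 3.11.15 for the tables) was fitted as described, with slide as a term where the pairing followed the slides. The difference is the mean over the 3 pairings and the standard error that of the pairing with the largest p. A fold stated as at least N sets the bright group's mean against the higher, per array, of the lowest level among probes with every spot well above background and the probe's own. Every p-value comes from limma over all probes and was adjusted by Benjamini-Hochberg. Nothing says that the biological samples came from separate cultures beyond the word biological, so p-values measure the spread between these samples, which may be technical.

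Named genes were Ptn, the 10 higher and 10 lower genes with the smallest p, the same sign on both slides and with both constructs, arrays that did not overlap and signal well above background, 3 in each direction for DEL against Delta, up to 4 per gene list, and any gene called among 20 or fewer. Klf6, Cdx2, Trp53, Tigar, Gata4, Gata6 and Sox17 fall outside that rule and were chosen after their values were seen. The comparison and the gene lists were chosen with earlier results of these data known. The 28 lists held 621 genes, 619 of them matched in RefSeq, and 333 were tested. Scripts were tested on simulated data. Same-numbered Ptn DEL and Ptn Delta arrays share a slide and a row on it and deviated together (correlation 0.38 to 0.59), so the number pairs these samples, as a pattern in the data. Alternatives covered the shading correction, background, normalization, filters, the slide term, single arrays, array weights, the replicate block, saturated probes (added after seeing the data) and leaving out each array. Some genes the rule names are not reported here.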

Additional observations from a re-analysis of the deposited data

Results flagged for a closer look

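Among 82 groups of 4 arrays examined for the named genes, 3 held an array far from the others by Dixon's criterion, and chance alone gives such an array in about 1 of 20 groups. On EGFP replicate 1 Car4 read 0.59, the other 3 controls lying at -0.10 to 0.00. Zranb3 read -0.69 on Ptn DEL replicate 3, against -1.01 to -1.0. Col4a1 read 0.51 on Ptn DEL replicate 4, against 0.21 to 0.23.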

How the results depend on the processing

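The count of probes called between the pooled TALEs and EGFP was 0 in 29 of 34 alternatives, leaving out each array among them, and was 3 on slide 1 alone, 2 on slide 2 alone, 35 with arrays entered singly, 31 with array weights and 80 with the replicate number as a block. Without each array in turn the count at an unadjusted p under 0.05 ran from 476 to 1159. Arrays of a replicate number share a slide and a row on it, and 10 of 12 correlated best with an array of their own number. Between EGFP and either TALE group the same-numbered deviations correlated at -0.09 to 0.50, not above 0.1 in every pair, so that the block is given here as an alternative. Between DEL and Delta the count was 0 in all 32 alternatives, the replicate block included. For VP64 against the pooled TALEs the single call was 0 without the shading correction, in the authors' values, with no filter and on slide 1, 2 on slide 2, and 249, 897 (replicate block) and 575 (array weights) with arrays entered singly, and 0 to 1 without each array. Of the 28 list medians 16 were above 0, 26 without the shading correction, 12 after normexp, 11 with no filter on dim probes, 11 on probes above background on all arrays, and 15 to 19 without each array.

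Normexp turned the sign of Ptn (-0.065), Adamts1 (-0.14), Npw (-0.24), Zbp1 (-0.67), Alk (-0.41) and Ptprz1 (-0.29). The authors' values turned Rpl39 (0.035), Acsbg2 (0.15), Cpne9 (0.0064), Pou5f1 (0.90) and Lamc1 (-0.45). Pou5f1 was also 1.04 without the shading correction, Sox2 0.037 and Zbp1 -0.019 on slide 1 alone, and a separate Rps6 probe gave 0.028. The cause was not tested. Saturation bounds the brightest probes, and background the dimmest.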
